A study of Mus musculus with 60 samples.

Results

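Long CDR3 of the T cell receptor (TCR) beta chain (TCRB) were followed in donor CD4 and CD8 T cells before and after allogeneic hematopoietic cell transplantation (HCT). A clonotype counted as long if its CDR3 began with cysteine, ended with phenylalanine or tryptophan, held no other cysteine and was 16 to 25 residues long. Of the 168222 TCRB clonotypes listed in the CD4 and CD8 tables together, 13944 were long, 5772 among CD4 and 8172 among CD8 T cells. Donors were C57BL/6 mice that were wild type (WT), that lacked STAT3 in T cells through a floxed Stat3 and Cre under the CD4 promoter (STAT3ko), or that also carried a germline PD-1 knockout (STAT3koPD-1ko). Sorted donor CD90.2+ T cells of 1 genotype were given to lethally irradiated BALB/c recipients, and every recipient also received T cell-depleted bone marrow from WT C57BL/6 mice. Each cell type had 15 libraries: 3 labelled before HCT, from spleen, 1 per genotype, and 12 from day 6 after HCT, 2 replicates for each genotype in the liver and in the gut. A day 6 library pooled lymphocytes of 3 recipients, sorted for the donor molecule H-2Kb, TCRβ and CD4 or CD8. The TCRB tables hold no other genes, so here the cell type labels rest on the sort.

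The beta chain is assembled in developing T cells by joining 1 variable (V), 1 diversity (D) and 1 joining (J) segment. Nucleases trim the segment ends, hairpin opening can leave short palindromic (P) bases, and terminal transferase adds bases that no segment encodes (N bases). The CDR3 spans these joints and forms the loop that usually faces the peptide in the MHC groove. Its length is therefore set by which segments are joined, how much of each end is kept and how many bases are added.

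The following sequences show how such a CDR3 is built. The germline D segments are those of GENCODE vM21 on GRCm38 (mm10), TRBD1 at chr6:41533201-41533212 and TRBD2 at chr6:41542163-41542176, both on the plus strand.

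TRBD1: gggacagggggc
TRBD2: gggactgggggggc

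The first 4 clonotypes below are from CD4 T cells and the last 4 from CD8 T cells. They are shown because they were long clonotypes above 0 in the most libraries, or most frequent on day 6 or before HCT. Each is the CDR3 base sequence deposited for the clonotype, 5′ to 3′, from the codon of the first cysteine, with the bases between the end of V and the start of J in capitals.

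CD4 TRBV23 TRBJ2-3: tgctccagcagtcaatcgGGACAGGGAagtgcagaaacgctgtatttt
CD4 TRBV12-2 TRBJ2-4: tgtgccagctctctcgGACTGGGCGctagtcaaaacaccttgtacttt
CD4 TRBV13-2 TRBJ2-1: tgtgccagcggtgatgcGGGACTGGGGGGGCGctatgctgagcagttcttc
CD4 TRBV14 TRBJ1-4: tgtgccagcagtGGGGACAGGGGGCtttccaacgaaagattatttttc
CD8 TRBV12-2 TRBJ2-1: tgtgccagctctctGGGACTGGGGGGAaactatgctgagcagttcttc
CD8 TRBV17 TRBJ2-4: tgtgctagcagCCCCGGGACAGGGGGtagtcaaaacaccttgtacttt
CD8 TRBV16 TRBJ2-2: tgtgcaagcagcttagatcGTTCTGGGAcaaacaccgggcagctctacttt
CD8 TRBV29 TRBJ2-5: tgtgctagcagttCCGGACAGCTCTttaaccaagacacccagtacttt

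In 6 of these 8 clonotypes the capitals are largely the G-rich run of a D segment. The TRBV14 clonotype held all 12 bases of TRBD1 with 1 base before them, and the TRBV13-2 clonotype, of 17 residues, had 15 bases assigned to TRBD2, which has 14 in the germline. The TRBV16 clonotype carried only 5 D bases, and the TRBV29 clonotype carried 6, with 6 further bases that no segment accounted for. In the TRBV23 clonotype 8 D bases and 1 further base stood between a V end and a J end that had lost no germline base.

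Lengths fell off steeply above the lower bound. In CD4 T cells 4569 of the long clonotypes had 16 residues, 980 had 17, 186 had 18 and 30 had 19, and the longest had 21. CD8 T cells held 6232 at 16 residues, 1545 at 17, 321 at 18 and 65 at 19, with the longest at 22. Just outside the bound, 15 residues without a second cysteine were found in 13852 CD4 and 16695 CD8 clonotypes. Long clonotypes made up 8.56% of the CD4 and 10.3% of the CD8 clonotypes whose CDR3 ran from C to F or W.

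Some V segments could not contribute to the count. TRBV1, whose CDR3 nearly always carried a second cysteine (99.5% of its CD4 and 99.7% of its CD8 clonotypes), had no long clonotype by this definition. It accounted for 554 of the 555 CD4 and 471 of the 478 CD8 clonotypes of 16 to 25 residues with a second cysteine. CDR3 that did not run from C to F or W numbered 18306 in CD4 and 2922 in CD8 T cells. Of these, 17810 and 2414 were called with TRBV26, at a median of 35 residues and none beginning with C, so the CDR3 length of TRBV26 could not be assessed.

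Libraries were not independent of each other, which bears on every comparison below. The join lists a clonotype only if it was found in at least 2 of its 18 libraries, and 3 of these were not analysed here. Within a genotype, the library before HCT and liver replicate 1 shared 476 to 701 long CD4 clonotypes, which was 72.7% to 88.8% of those before HCT, and 628 to 956 long CD8 clonotypes (65.9% to 91.7%). Gut replicate 1 shared 389 to 687 long CD4 clonotypes with liver replicate 1 and 424 to 598 with liver replicate 2. In contrast, the 2 liver replicates shared 22 to 52 long CD4 clonotypes and the 2 gut replicates 9 to 37. For pairs of libraries of different genotypes, the median share of the smaller library's long clonotypes that was found in both was 4.86% in CD4 and 7.64% in CD8 T cells.

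Gut replicate 2 stood apart in all 3 genotypes. Its listed clonotypes covered 47.8% to 51.5% of the reads in CD4 and 53.2% to 58.0% in CD8 T cells, against 81.5% to 98.4% in the other libraries. It held 158 (WT), 66 (STAT3ko) and 65 (STAT3koPD-1ko) long CD4 clonotypes, and 451, 320 and 347 long CD8 clonotypes. Read counts were not given and were not inferred from the shares, so the depth is treated as unknown. Values are shares of reads and not of cells, and the lowest of them may rest on very few reads.

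Long CDR3 made up between 1.80% and 7.44% of the listed CD4 reads and between 2.18% and 7.88% of the listed CD8 reads with a CDR3 from C to F or W. In CD4 T cells before HCT this long share was 6.49% in WT, 6.49% in STAT3ko and 7.44% in STAT3koPD-1ko. Liver CD4 T cells had 6.35%, 6.29% and 6.87% in replicate 1 and 4.97%, 6.64% and 6.21% in replicate 2, in the same order of genotypes. The CD4 gut libraries split by replicate, with 5.78%, 6.65% and 7.07% in replicate 1 and 1.80%, 2.35% and 3.62% in replicate 2. All 3 gut replicate 2 libraries lay below every other CD4 library.

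In CD8 T cells before HCT the long share was 7.15% in WT, 7.75% in STAT3ko and 7.46% in STAT3koPD-1ko. Liver CD8 T cells had 7.06%, 7.88% and 7.06% in replicate 1 and 6.28%, 7.14% and 6.59% in replicate 2. Gut CD8 T cells had 6.71%, 7.43% and 6.18% in replicate 1 and 2.69%, 3.25% and 2.18% in replicate 2. As among CD4 T cells, the 3 gut replicate 2 libraries were the lowest.

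The comparison of T cells before HCT with those in the GVHD target tissues asks whether the length of the receptors changed with transplantation and site. The mean long share in CD4 T cells was 6.81% ± 0.548 (SD, n = 3) before HCT, 6.22% ± 0.659 (n = 6) in the liver and 4.55% ± 2.26 (n = 6) in the gut. In CD8 T cells it was 7.45% ± 0.304 (n = 3), 7.002% ± 0.545 (n = 6) and 4.74% ± 2.29 (n = 6). None of the 6 site comparisons passed an adjusted p of 0.05. The gut share of CD8 T cells was 2.26 points below that of the liver (two-sided exact permutation test, p = 0.0519, adjusted p = 0.156). It was lower in 6 of 6 pairs of the same genotype and replicate number, but these numbers are not a pairing. WT gut replicate 1 (6.71%) and STAT3ko gut replicate 1 (7.43%) lay above liver replicate 2 of their genotypes (6.28% and 7.14%). The CD8 gut share was 2.71 points below the share before HCT, and lower in 6 of 6 gut libraries than in the library of their genotype (exact p = 0.0476, adjusted p = 0.156). In CD4 T cells the gut was 1.68 points below the liver, lower in 4 of 6 pairs (exact p = 0.123, adjusted p = 0.232), and 2.26 points below the share before HCT (exact p = 0.155, adjusted p = 0.232). Liver and before HCT differed by less, at 0.587 points lower in the liver for CD4 (exact p = 0.286, adjusted p = 0.286) and 0.451 points lower for CD8 T cells (exact p = 0.238, adjusted p = 0.286). The smallest p these designs allow is 0.00216 between gut and liver and 0.0119 against the 3 libraries before HCT, and the methods describe 2 batches of pools without saying which library belongs to which, so p measures only the spread between these libraries.

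The gut difference rested on replicate 2. With replicate 1 alone the gut minus liver difference was -0.000776 points in CD4 and -0.559 points in CD8 T cells, and with replicate 2 alone it was -3.35 and -3.97 points. Those fits had 3 libraries against 3, where the smallest exact p is 0.1. Gut replicate 2 also differed in which clonotypes were listed. Of its long clonotypes, a mean of 22.3% (15.4% to 34.8%) in CD4 and 15.1% (14.1% to 15.9%) in CD8 T cells were above 0 in libraries of only 1 genotype, against 80.0% to 86.5% and 77.6% to 82.9% in the other libraries. This was not particular to long CDR3, since the shorter clonotypes of gut replicate 2 had means of 14.8% in CD4 and 11.8% in CD8 T cells, against 47.5% to 57.8% and 45.4% to 51.9% in the other libraries. When only clonotypes above 0 in libraries of at least 2 genotypes were counted, an alternative chosen after the data were seen, the mean long share was 2.11% before HCT, 1.84% in the liver, 2.18% in gut replicate 1 and 2.35% in gut replicate 2 for CD4 T cells. The corresponding CD8 values were 2.61%, 2.59%, 2.71% and 2.63%. Gut minus liver was then 0.421 points in CD4 (exact p = 0.262, adjusted p = 0.881) and 0.0804 points in CD8 T cells (exact p = 0.532, adjusted p = 0.881). This selection was made on the property in which gut replicate 2 stood apart and took most long clonotypes from the other libraries but few from gut replicate 2, so the levelling is in part built in and is given as a description only.

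**Figure D1:**
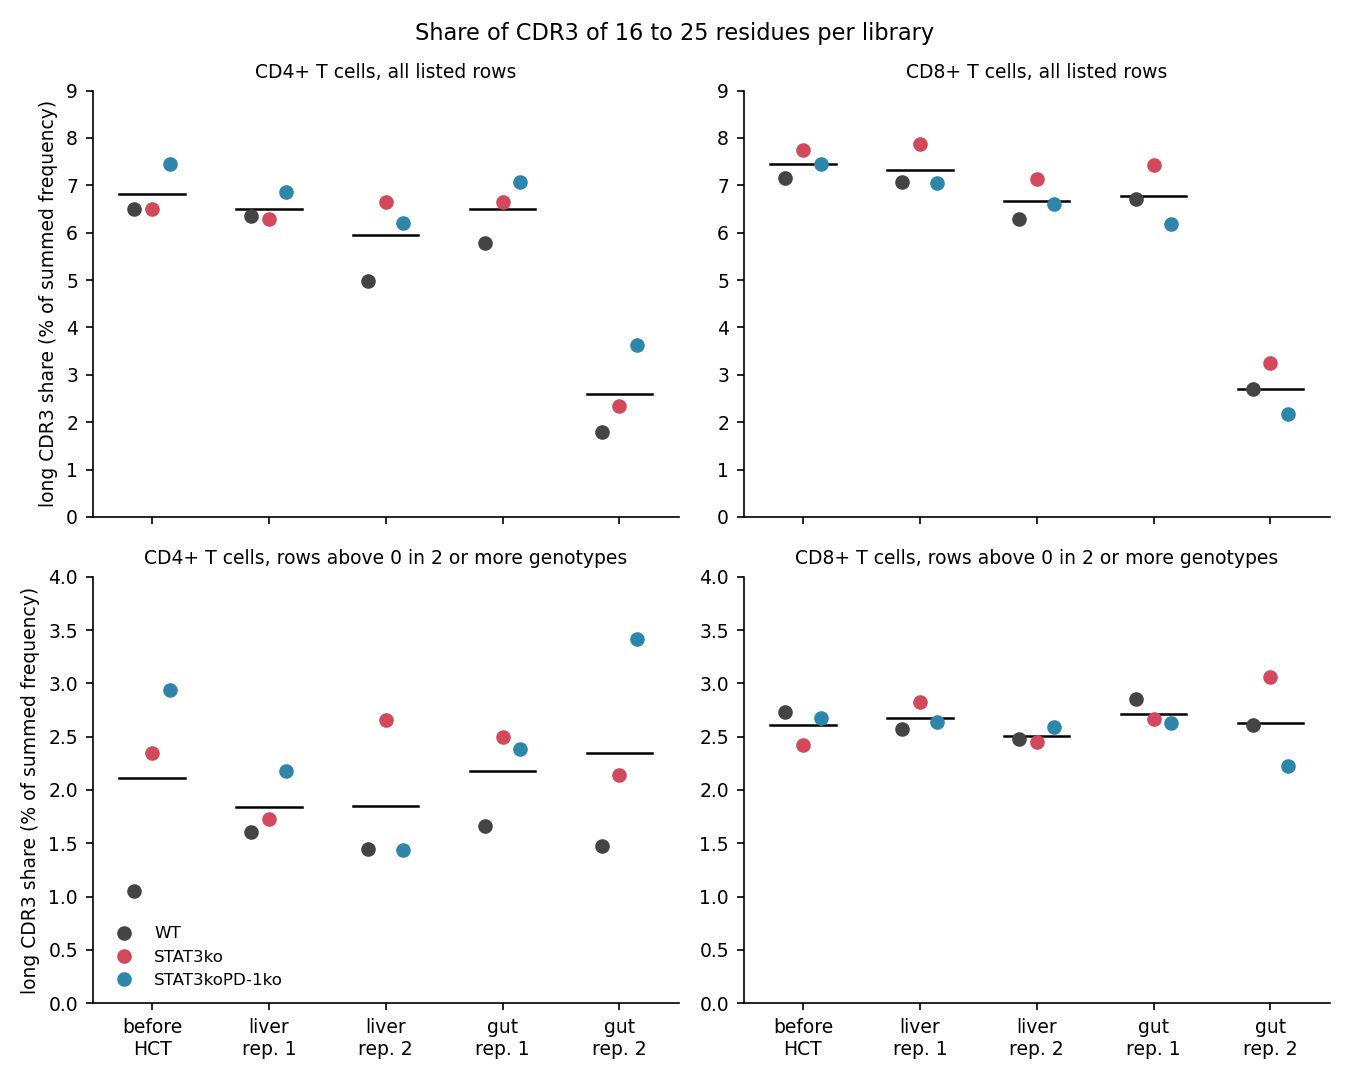
Long CDR3 (16 to 25 residues) as a percentage of the summed frequency of clonotypes with a CDR3 from C to F or W, for each library before HCT and for both replicates of liver and gut on day 6, in CD4 and CD8 T cells. Each point is 1 library, coloured by genotype, and each line is the mean of 3. With all listed clonotypes (upper panels) the gut replicate 2 libraries lie at 1.80% to 3.62% in CD4 and 2.18% to 3.25% in CD8 T cells, below all others, while with clonotypes above 0 in at least 2 genotypes (lower panels, on a smaller scale) they overlap the rest.

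Genotypes were compared to ask whether loss of STAT3, or of PD-1 in addition, altered the receptors that reached the tissues. Over the 4 day 6 libraries of each genotype, the CD4 long share was 4.73% ± 2.03 (SD) in WT, 5.48% ± 2.10 in STAT3ko and 5.94% ± 1.59 in STAT3koPD-1ko. The CD8 long share was 5.69% ± 2.02, 6.42% ± 2.14 and 5.50% ± 2.24. STAT3ko exceeded WT by 0.758 points in CD4 and 0.739 points in CD8 T cells, where it was higher in 4 of 4 pairs of the same tissue and replicate number. STAT3koPD-1ko exceeded WT by 1.22 points in CD4 T cells, higher in 4 of 4 pairs, and was 0.184 points lower in CD8 T cells. Against STAT3ko it was 0.459 points higher in CD4 and 0.923 points lower in CD8 T cells, lower in 4 of 4 pairs. All of these pairs follow the replicate number, which is not a pairing, so the tallies depend on that match. These directions were not stable, except for STAT3koPD-1ko minus WT in CD4 T cells. With 1 library left out, that difference stayed between 0.221 and 2.21 points. With liver and gut weighted equally, STAT3koPD-1ko minus STAT3ko in CD4 T cells turned to -0.617 without STAT3ko gut replicate 2. It was -0.402 without STAT3koPD-1ko gut replicate 1 and -0.369 with each clonotype counted once. In CD8 T cells STAT3koPD-1ko minus STAT3ko turned to 0.123 without STAT3ko gut replicate 1 and 0.0774 without STAT3koPD-1ko gut replicate 2. Leaving out 1 library also turned the sign of STAT3ko minus WT in both cell types and of STAT3koPD-1ko minus WT in CD8 T cells. Exact permutation p within tissue ranged from 0.389 to 0.667 and the adjusted p was 0.667 for all 6 comparisons. With 36 arrangements the smallest p is 0.0556, so this design could not pass 0.05.

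Clonotypes confined to libraries of a single genotype had similar proportions of long CDR3 in each. These were 10.1% in WT-only, 11.4% in STAT3ko-only and 11.2% in STAT3koPD-1ko-only CD4 clonotypes, and 12.9%, 14.0% and 12.7% of those of CD8 T cells. The differences between genotypes in these proportions were not tested.

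The definition fixes that long CDR3 have more bases, so the following values describe where these bases lay and are given with no test. Counting each clonotype once, the bases between the end of V and the start of J averaged 12.8 in long CDR3 and 8.47 in CDR3 under 16 residues for CD4 T cells, and 12.9 and 8.55 for CD8 T cells. That stretch supplied the largest part of the difference. J contributed 20.9 bases in long against 18.5 in shorter CD4 CDR3 (21.0 and 18.03 in CD8), and V contributed 15.1 against 13.9 (15.03 and 14.01). D segments were also longer, at 9.76 bases in long against 7.84 in shorter CD4 CDR3 and at 9.92 against 7.93 in CD8 CDR3. Bases that no segment accounted for differed less, at 3.53 against 2.56 in CD4 and 3.42 against 2.57 in CD8 T cells. Means of D bases and of bases of no segment used only clonotypes with a D segment named. These were 5368 of 5772 long and 42476 of 61142 shorter CD4 clonotypes, and 7605 of 8172 and 49903 of 70875 in CD8 T cells. Such means are therefore not parts of the mean stretch between V and J above. Within the long CD4 CDR3, from 16 to 18 residues, the stretch between V and J rose from 12.2 to 17.02 bases, the D segment from 9.43 to 12.04 and the bases of no segment from 3.33 to 4.86, while J went from 20.8 to 21.5 and V from 14.96 to 15.4. Of the long CD4 and CD8 clonotypes, 6.999% and 6.94% had no D segment named, against 30.5% and 29.6% of the shorter ones.

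**Figure D2:**
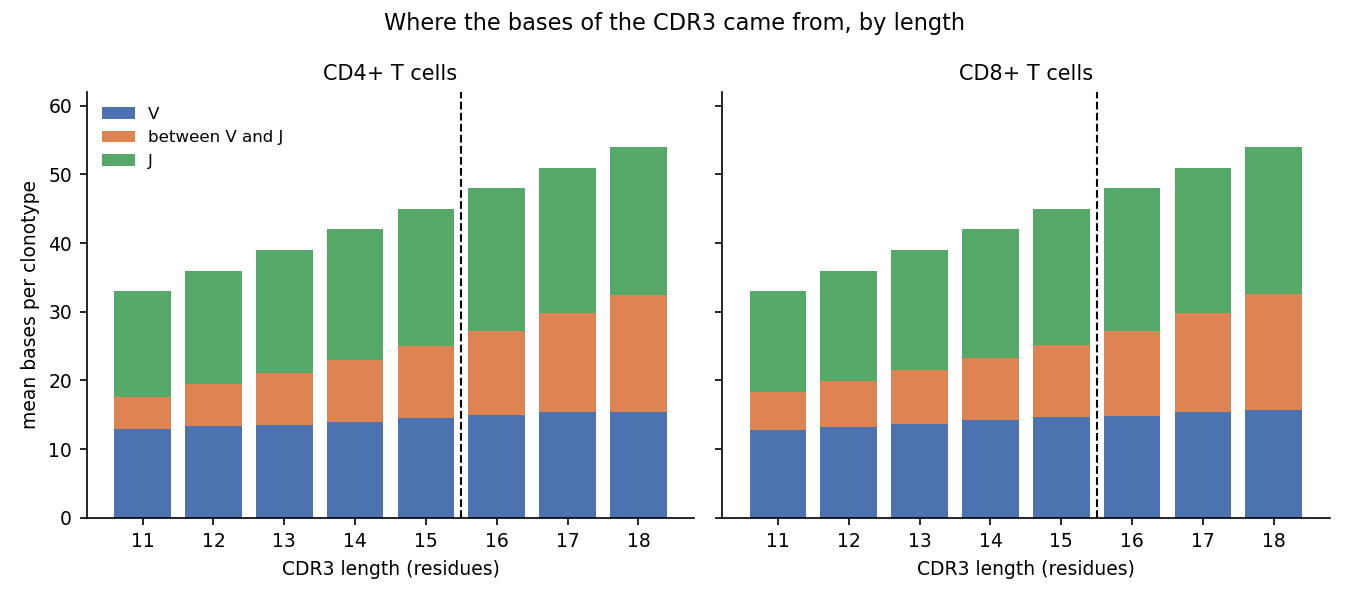
Mean number of CDR3 bases per clonotype from V, from between V and J, and from J (stacked bars), for CDR3 of 11 to 18 residues in CD4 and CD8 T cells; the dashed line marks the lower bound of a long CDR3. In CD4 T cells the middle part grows from 12.2 bases at 16 residues to 17.02 at 18, while V and J change little above 16 residues.

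Segment ends were trimmed less in long CDR3. J lost 0.826 bases against its germline end in long and 2.59 in shorter CD4 CDR3, and 0.704 against 2.86 in CD8 CDR3. An untrimmed J end was found in 46.2% of long against 25.9% of shorter CD4 clonotypes and in 48.7% against 23.2% of CD8 clonotypes. The V end was untrimmed in 38.6% against 22.4% (CD4) and 37.2% against 24.3% (CD8). Both ends were intact in 15.9% of long CD4 and 17.1% of long CD8 clonotypes, against 4.86% and 5.20% of shorter ones. J matched past its germline end in 30.1% of long CD4 and 32.1% of long CD8 clonotypes, and 84.5% and 85.5% of those extensions were the palindrome of the J end, the form that P bases take. In shorter clonotypes J matched past its end in 16.2% (CD4) and 14.2% (CD8), and 76.6% and 75.4% of those extensions were palindromic. D segments kept at least their germline length in 18.2% (TRBD1) and 14.9% (TRBD2) of the long CD4 clonotypes that named them, against 5.99% and 4.78% of the shorter ones.

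J segments differed in germline length and in the percentage of their clonotypes that were long, without a steady rise from one to the other. TRBJ2-7, the shortest at 19 germline bases to the closing phenylalanine, was long in 2.73% of its CD4 and 3.03% of its CD8 clonotypes. TRBJ1-1 and TRBJ1-2, at 20 bases, were long in 2.22% and 3.10% of CD4 clonotypes and in 2.31% and 2.93% of CD8 clonotypes. TRBJ2-3, at 21 bases, was long in 17.1% and 19.9%, and TRBJ2-2, at 23 bases, in 17.01% and 22.5%. TRBJ1-5, at 22 bases, was long in only 4.20% and 6.0%, below TRBJ1-3 (10.9% and 14.2%) and TRBJ2-1 (10.6% and 13.4%) of the same length. TRBJ1-6, which has 25 bases, was long in 11.97% and 13.4%. Over the 12 J segments the rank correlation of germline length with the percentage long was 0.559 in CD4 and 0.530 in CD8 T cells, given as a description since the segments share libraries and D segments.

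**Figure D3:**
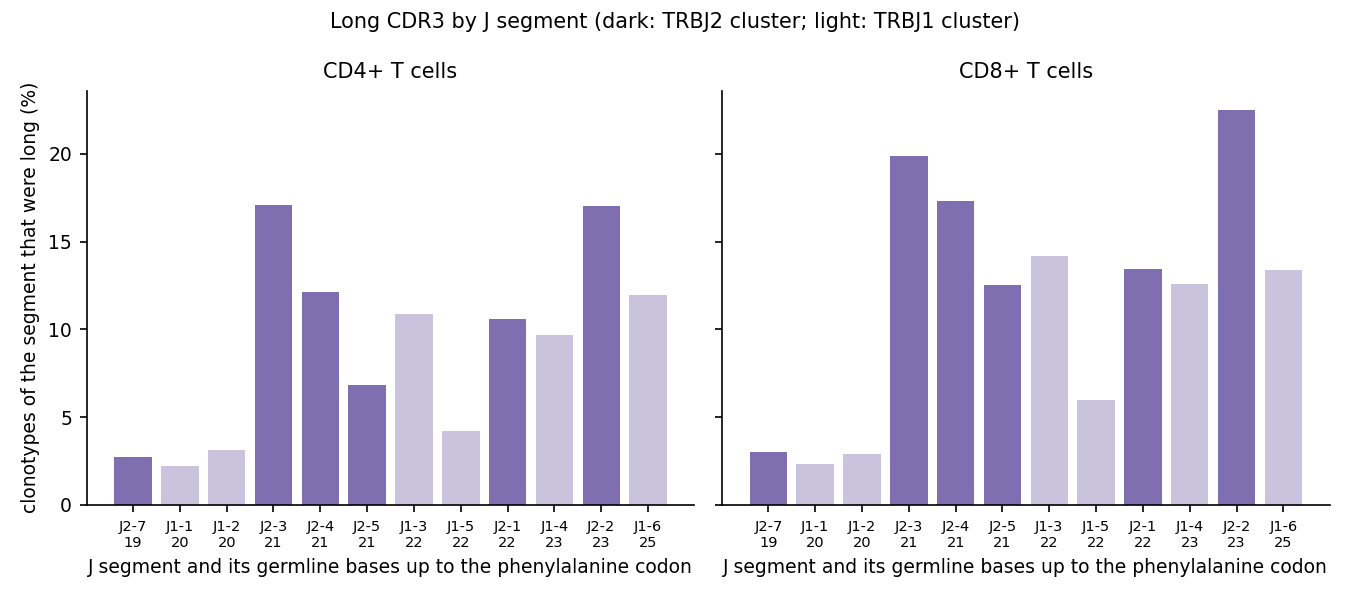
Percentage of the clonotypes of each of the 12 TRBJ segments that had a long CDR3, in CD4 and CD8 T cells, with the segments ordered by their germline number of bases up to the phenylalanine codon (printed under each name). Bars of the TRBJ2 cluster are dark and those of the TRBJ1 cluster light; TRBJ2-7 (19 bases) stands at 2.73% in CD4 and 3.03% in CD8 T cells, and TRBJ2-2 (23 bases) at 17.01% and 22.5%.

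As a share of long reads, TRBJ2-3 led in CD4 T cells with 23.0% ± 9.45 (SD, n = 15), against 8.75% ± 0.650 of shorter reads. TRBJ1-3 made up 7.16% ± 3.02, TRBJ1-4 10.1% ± 6.46, TRBJ2-1 11.7% ± 4.36, TRBJ2-2 12.4% ± 3.53, TRBJ2-4 13.7% ± 2.44 and TRBJ2-5 9.49% ± 4.03, and the order of these means differed between sites. TRBJ1-4 reached 30.4% in STAT3koPD-1ko gut replicate 2. In CD8 T cells TRBJ2-1 led with 20.4% ± 2.16 of long reads, against 15.1% ± 0.741 of shorter reads, with TRBJ2-2 at 12.6% ± 2.27, TRBJ2-3 at 16.7% ± 4.17, TRBJ2-4 at 13.6% ± 3.06 and TRBJ2-5 at 12.2% ± 3.56. TRBJ1-4 made up 6.93% ± 2.46 and TRBJ1-3 5.28% ± 1.501 of long CD8 reads. TRBJ2-7, the most used J of shorter CD8 reads at 27.1% ± 1.42, made up 5.18% ± 2.58 of long reads, and was lower in 15 of 15 libraries. No J segment passed an adjusted p of 0.05 between gut and liver in limma, in CD4 (0 of 12, 0%, with 0 at an unadjusted p under 0.05) or in CD8 T cells (0 of 12, 0%, with 1 at an unadjusted p under 0.05).

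TRBD2, and the TRBJ2 segments when summed, had a higher share of long than of shorter reads, although single TRBJ2 segments went both ways. TRBJ2-7 made up 4.04% of long and 19.4% of shorter CD4 reads, and TRBJ2-5 9.49% and 13.3%. Summed, TRBJ2 segments made up 74.4% of long and 66.0% of shorter CD4 reads, higher in 14 of 15 libraries, and 80.7% and 69.1% of CD8 reads, higher in 15 of 15. TRBD2, the longer D segment, was named for 50.9% of long and 21.7% of shorter CD4 reads, and for 61.1% and 25.3% of CD8 reads, higher in 15 of 15 libraries of each cell type. These shares were not tested, because the libraries share clonotypes and TRBD2 is the longer segment.

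V segments of the long CDR3 differed from those of the shorter ones, and differently in CD4 and CD8 T cells. The long clonotypes used 23 (CD4) and 22 (CD8) V segments and all 12 J segments, in 238 of the 286 CD4 and 239 of the 274 CD8 V and J pairs found among CDR3 from C to F or W. Usage is the share of a library's long, or shorter, reads, and CD4 and CD8 values come from separate tables and are set side by side with no test.

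TRBV5 made up 21.7% ± 6.73 (SD, n = 15) of the long CD4 reads, against 7.77% ± 2.11 of shorter reads, and was higher in 15 of 15 libraries. By mean it was the most used V segment of long CD4 reads before HCT (26.1%) and in the liver (26.1%), but not in the gut. In CD8 T cells it made up 9.59% ± 2.15 of long and 3.87% ± 0.766 of shorter reads, also higher in 15 of 15. Of the clonotypes with TRBV5, 19.97% were long in CD4 and 20.7% in CD8 T cells, and with TRBJ2-3 the figure was 41.8% (215 of 514 CD4 clonotypes). TRBV2 behaved alike, with 4.79% of long and 2.11% of shorter CD4 reads and 2.68% and 0.540% of CD8 reads. Among the TRBV2 clonotypes of CD8 T cells, 29.97% were long. Together TRBV5 and TRBV2 made up 26.4% ± 7.64 of long and 9.88% ± 2.54 of shorter CD4 reads.

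TRBV16 went opposite ways in the tables. In CD4 T cells it was the main V segment of shorter reads, at 17.3% ± 2.51, but made up 7.51% ± 3.45 of long reads, lower in 15 of 15 libraries. In CD8 T cells it made up 6.05% ± 0.943 of shorter and 9.03% ± 2.12 of long reads, higher in 14 of 15. TRBV16 with TRBJ2-2 was long in 37.1% of its 350 CD8 clonotypes. TRBV15, its neighbour, made up 3.19% of long and 7.10% of shorter CD4 reads, lower in 15 of 15 libraries.

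TRBV23 made up 13.3% ± 14.4 of long and 7.64% ± 5.85 of shorter CD4 reads, higher in 14 of 15 libraries, a mean over sites that differed widely. TRBV12-2 made up 12.7% ± 4.74 of long CD8 reads, against 6.58% ± 0.961 of shorter reads, and was higher in 15 of 15 libraries. Its mean share of long CD8 reads was 10.9% before HCT, 10.3% in the liver and 16.05% in the gut, and that of TRBV29 was 15.1%, 13.7% and 8.98%. TRBV29, the main V segment of shorter CD8 reads at 21.7% ± 2.14, made up 12.1% ± 3.78 of long reads and was lower in 15 of 15. TRBV3 was higher, from 2.66% ± 0.268 of shorter to 5.32% ± 0.873 of long CD8 reads, in 15 of 15 libraries. TRBV13-1 (9.05% of long, 12.3% of shorter reads), TRBV13-3 (5.31%, 7.84%) and TRBV14 (6.32%, 8.90%) were lower among long CD8 reads. TRBV12-1 (6.74%, 6.36%) and TRBV13-2 (5.16%, 4.44%) differed by less than the SD of the long reads. Among long CD4 reads TRBV13-2 made up 8.85% ± 3.13 against 5.18% ± 1.21 of shorter reads, higher in 14 of 15 libraries. TRBV13-1 (9.17%, 10.4%), TRBV13-3 (6.12%, 5.65%) and TRBV19 (5.36%, 4.59%) differed by less than the SD of the long CD4 reads.

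Summed by group, the TRBV12 pair made up 19.5% of long and 12.9% of shorter CD8 reads, higher in 15 of 15 libraries, and 5.47% and 3.28% of CD4 reads, higher in 9 of 15. The TRBV13 family was higher among long CD4 reads (24.1% against 21.3%, 12 of 15 libraries) and lower among long CD8 reads (19.5% against 24.6%, lower in 14 of 15). TRBV17, TRBV19 and TRBV29 together made up 22.02% of long and 31.4% of shorter CD8 reads, and 9.38% and 8.77% of CD4 reads. TRBV3, TRBV4, TRBV14, TRBV20 and TRBV30 together were lower among long CD4 reads (9.15% against 16.1%, 15 of 15 libraries) and at 15.2% of both long and shorter CD8 reads. TRBV15 and TRBV16 made up 10.7% of long and 24.4% of shorter CD4 reads, and 10.8% and 8.37% of CD8 reads.

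**Figure D4:**
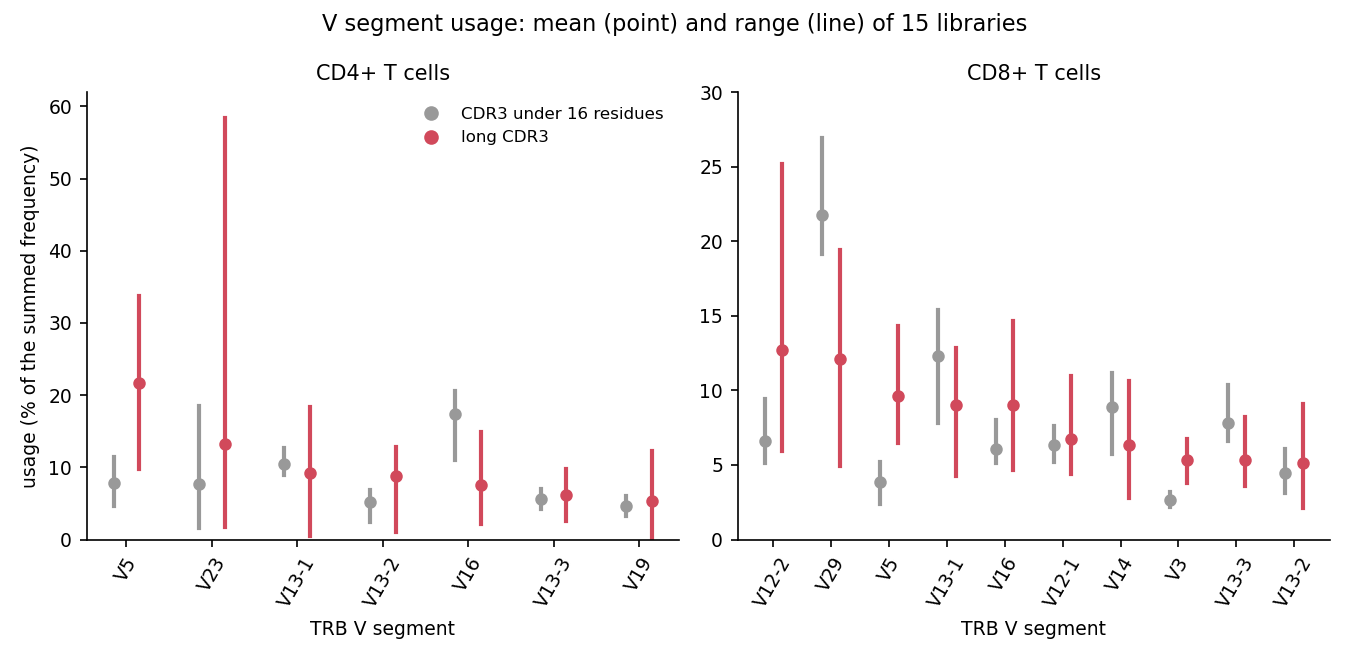
Usage of the named V segments as a percentage of long reads and of reads with a CDR3 under 16 residues, mean (point) and range (line) over the 15 libraries of CD4 and of CD8 T cells. TRBV5 stands higher among long reads in both (21.7% against 7.77% in CD4 and 9.59% against 3.87% in CD8 T cells), and TRBV16 is lower among long reads in CD4 (7.51% against 17.3%) and higher in CD8 T cells (9.03% against 6.05%).

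TRBV23 and TRBV12-2 were used more by the long CDR3 of gut than of liver CD4 T cells. They were the 2 V segments of 18 tested (11.1%) that passed an adjusted p of 0.05 in limma, while 4 had an unadjusted p under 0.05. TRBV23 made up 13.3% (WT), 24.8% (STAT3ko) and 21.2% (STAT3koPD-1ko) of long reads in gut replicate 1 and 16.8%, 18.6% and 58.3% in gut replicate 2. In the liver it made up 4.69% to 8.44%, and before HCT 1.76% to 3.56%, so the 3 sites did not overlap. The log2 difference between gut and liver was 1.79 (SE 0.41, limma, adjusted p = 0.0129), higher in 6 of 6 pairs. The gut replicate 2 values rested on 15, 8 and 6 TRBV23 clonotypes. The largest TRBV23 clonotype of each made up 4.97%, 8.03% and 17.01% of its long reads.

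TRBV12-2 made up 5.93%, 3.63% and 3.04% of the long CD4 reads of gut replicate 1, and 8.55%, 13.6% and 2.75% of gut replicate 2. In the liver it made up 1.88%, 0.601% and 2.24% in replicate 1 and 1.42%, 3.00% and 0.795% in replicate 2, so that the highest liver library lay above the lowest gut library. The log2 difference was 1.79 (SE 0.51, limma, adjusted p = 0.0328). It no longer passed when any 1 of 6 libraries was left out, with adjusted p from 0.0606 to 0.108: STAT3ko gut replicate 2, STAT3ko liver replicate 1, STAT3koPD-1ko liver replicate 2, WT gut replicate 2, WT liver replicate 1 or WT liver replicate 2. Counting each clonotype once in place of its reads left neither segment called, with log2 differences of 0.21 (limma, adjusted p = 0.434) for TRBV23 and 0.75 (adjusted p = 0.349) for TRBV12-2.

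TRBV5 was at 14.98% of long CD4 reads in the gut and 26.1% in the liver, without overlap between the 6 gut and 6 liver libraries, but with an adjusted p of 0.170 in limma (log2 difference -0.80). Across V segments, the difference between gut and liver was then compared between long CDR3 and all other CDR3 from C to F or W of the same libraries. None was called in CD4 (0 of 18, 0%, with 1 at an unadjusted p under 0.05) or in CD8 T cells (0 of 16, 0%, with 1 at an unadjusted p under 0.05) in limma. For TRBV23 that log2 difference of differences was -0.02 (limma, adjusted p = 0.987). Between gut and liver itself, 0 of 16 V segments of long CD8 CDR3 were called in limma (0%, with 4 at an unadjusted p under 0.05).

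The middle of the loop, here all residues but the first 4 and the last 5, was rich in glycine. Glycine made up 27.5% of the middle residues of long and 23.6% of shorter CD4 clonotypes, higher in 15 of 15 libraries, and 26.1% and 24.9% of CD8 clonotypes, higher in 12 of 15. Charged residues were fewer, at 15.3% against 18.8% (CD4) and 15.4% against 17.8% (CD8), lower in 15 of 15 libraries of each. A pair of adjacent glycines occurred in 48.8% of long and 20.3% of shorter CD4 clonotypes and in 47.1% and 21.8% of CD8 clonotypes. The reading frames of TRBD2 give the motifs GLG and DWG. GLG was present in 8.73% of long against 1.97% of shorter CD4 clonotypes (11.3% against 2.28% in CD8), and DWG in 8.51% against 3.04% (11.3% against 3.59% in CD8). A longer middle has more room for any motif, so these percentages were not tested.

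By site, the middle of the long CDR3 held 29.6% ± 2.23 glycine in gut and 26.6% ± 0.595 in liver CD4 T cells (n = 6 each, weighted by reads, exact p = 0.00866, adjusted p = 0.228). Charged residues were at 12.4% in gut and 16.6% in liver CD4 T cells (exact p = 0.0195, adjusted p = 0.228), and at 13.1% and 14.7% in CD8 T cells (exact p = 0.0433, adjusted p = 0.228). In CD8 T cells they were at 14.5% in gut and 14.8% in liver replicate 1, and at 11.6% and 14.6% in replicate 2. Before HCT they were at 13.8% in CD8 T cells, below the liver (exact p = 0.0238, adjusted p = 0.228). Glycine in the 3 CD4 gut replicate 2 libraries was at 30.6% to 32.9%, above the 26.9% to 28.4% of gut replicate 1. Charged residues varied widely there, at 10.6% in WT, 16.04% in STAT3ko and 3.79% in STAT3koPD-1ko, against 13.8% to 15.46% in gut replicate 1 and 15.01% to 18.6% in the liver, so the STAT3ko library lay within the liver range. Over the 40 tests of 10 features of the long CDR3 (2 contrasts in 2 cell types), 0 had an adjusted p under 0.05.

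Long clonotypes were found in fewer libraries than shorter ones. They were above 0 in a mean of 2.04 of the 15 CD4 and 2.27 of the 15 CD8 libraries, against 2.67 and 2.99 for shorter clonotypes. Among clonotypes above 0 in 1 library, 10.96% were long in CD4 and 13.5% in CD8 T cells. The percentage fell with every further step, to 10.2% and 12.5% in 2 libraries, 7.63% and 9.89% in 3, 2.77% and 4.33% in 4 to 5, 1.46% and 2.80% in 6 to 9, and 0.101% and 0.987% in 10 to 15 libraries. Those last groups held 1 long CD4 clonotype, the TRBV23 clonotype shown above, and 19 long CD8 clonotypes.

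The same was seen across genotypes. Libraries of only 1 genotype held 88.6% of the long and 68.4% of the shorter CD4 clonotypes, and 84.3% and 63.6% of CD8 clonotypes. All 3 genotypes held 82 long CD4 clonotypes (1.42%, against 8.97% of shorter ones) and 228 long CD8 clonotypes (2.79%, against 11.7%). The share in at least 2 genotypes fell at each residue from 14 to 18. For CD4 T cells it was 33.7% at 14 residues, 23.3% at 15, 12.7% at 16, 5.82% at 17 and 5.38% at 18, and in CD8 T cells it was 38.0%, 28.4%, 18.3%, 8.09% and 3.43%. Between the cell types, 163 long clonotypes had the same V, J and residues, 2.82% of the CD4 and 1.99% of the CD8 long clonotypes, against 7.96% and 6.87% for shorter ones. These shares are descriptions of the listed clonotypes, since the join left out those found in 1 library.

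**Figure D5:**
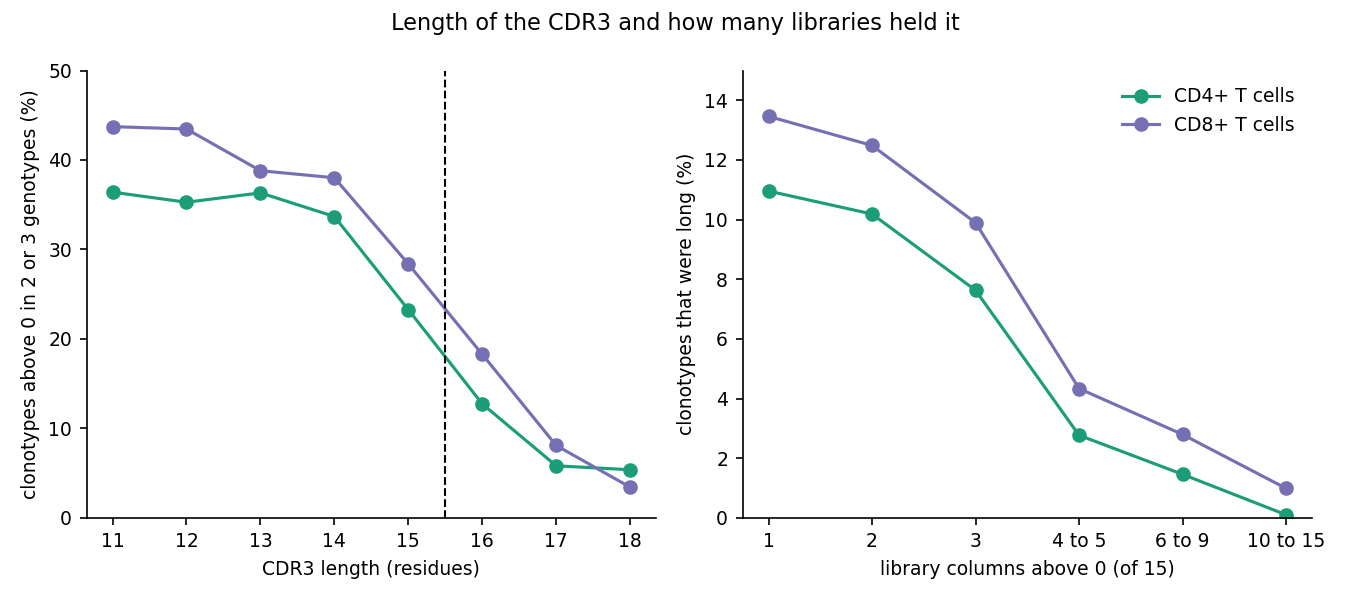
Left, percentage of clonotypes above 0 in libraries of 2 or 3 genotypes by CDR3 length, with a dashed line at the lower bound of a long CDR3. Right, percentage of clonotypes that were long by the number of the 15 libraries in which they were above 0. CD4 and CD8 T cells are shown in green and violet; the left curves fall from 33.7% and 38.0% at 14 residues to 5.38% and 3.43% at 18, and the right curves from 10.96% and 13.5% in 1 library to 0.101% and 0.987% in 10 to 15.

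Long clonotypes of all 3 genotypes held fewer added bases than those of 1 genotype. Where a D segment was named, they had 1.55 bases outside V, D and J in CD4 and 1.65 in CD8 T cells, against 3.71 and 3.65 in the clonotypes of 1 genotype. Shorter clonotypes showed the same, with 1.47 and 1.52 such bases in 3 genotypes against 2.88 and 2.94 in 1 genotype. For the long clonotypes, J was a TRBJ2 segment in 87.8% against 71.5% (CD4) and 92.1% against 76.0% (CD8). TRBD2 was named in 71.95% against 50.4% and 81.1% against 55.4% of these. For shorter clonotypes the TRBJ2 values were 65.5% against 63.7% (CD4) and 67.9% against 65.2% (CD8). Their TRBD2 values were 22.3% against 24.7% and 27.6% against 27.2%. At the V end the long clonotypes of the cell types differed, with 1.46 V bases lost against 1.66 in CD4 and 2.03 against 1.53 in CD8 T cells. Glycine made up 33.0% against 27.0% of the middle residues of long clonotypes in CD4 and 29.9% against 25.7% in CD8 T cells. Among the 82 CD4 clonotypes TRBV5 (17) and TRBJ2-3 (27) were the most common segments, and among the 228 CD8 clonotypes TRBV12-2 (37) and TRBJ2-1 (54).

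Single clonotypes showed both patterns. The long CD4 clonotype in the most libraries, 13 of 15, was that of TRBV23 and TRBJ2-3. It made up 0.000517% of the reads of WT and 0.00281% of STAT3ko T cells before HCT and was listed at 0 in STAT3koPD-1ko. In liver replicate 1 it was at 0.00215% (WT), 0.000948% (STAT3ko) and 0.000453% (STAT3koPD-1ko), and in liver replicate 2 it was listed at 0 in WT and stood at 0.00891% and 0.00151% in the others. In gut replicate 1 it made up 0.0115%, 0.00705% and 0.00148%, and in gut replicate 2 0.0207%, 0.0631% and 0.152%. In 6 of 6 gut libraries it lay above the liver library of the same genotype and replicate number, although these numbers are not a pairing. Gut replicate 1 of STAT3ko and of STAT3koPD-1ko lay below liver replicate 2 of the same genotype.

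The 2 other long CD4 clonotypes named for the number of libraries they were found in were rarer at their highest. That of TRBV12-2 and TRBJ2-4, above 0 in 9 libraries, ranged up to 0.0255% of the reads, in WT gut replicate 1, and was at 0.00723% before HCT in WT. That of TRBV13-2 and TRBJ2-1, above 0 in 8 libraries, was highest in STAT3ko before HCT at 0.0492% and at or below 0.0086% in the day 6 libraries.

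Long CD4 clonotypes that were frequent in 1 place were mostly found in few libraries. They and the frequent CD8 clonotypes were chosen for their mean level on day 6 or before HCT, so that a higher value at the chosen time follows from the choice. The TRBV14 and TRBJ1-4 clonotype made up 0.396% of the reads of STAT3ko T cells before HCT and 0.00128% of STAT3ko gut replicate 1, and was listed at 0 elsewhere. A TRBV5 and TRBJ2-2 clonotype was above 0 in STAT3koPD-1ko liver replicate 2 alone, at 0.331%. A TRBV13-1 and TRBJ1-3 clonotype was found in STAT3ko alone, at 0.0347% before HCT, 0.336% in liver replicate 1 and 0.00192% in gut replicate 1. These 3 were each seen in 1 genotype.

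STAT3koPD-1ko before HCT held the other 2 frequent long CD4 clonotypes. A TRBV5 and TRBJ2-3 clonotype was found in that genotype alone, at 0.251% before HCT, 0.0693% in liver replicate 1 and 0.0158% in gut replicate 1. A TRBV13-3 and TRBJ2-3 clonotype stood at 0.393% before HCT and at 0.0362% or less in the 6 further libraries where it was above 0, which included all 3 genotypes.

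Among CD8 T cells the TRBV12-2 and TRBJ2-1 clonotype was above 0 in 14 of 15 libraries, the most of any long clonotype. Before HCT it was at 0.00497% in WT and 0.0126% in STAT3koPD-1ko and was listed at 0 in STAT3ko. It made up 0.000371% to 0.0244% of the reads of the liver libraries and 0.00116% to 0.0377% of the gut libraries. The gut replicate 2 values (0.00141%, 0.00116% and 0.008%) lay below those of gut replicate 1 (0.0377%, 0.0181% and 0.031%). The TRBV17 and TRBJ2-4 clonotype shown above and one of TRBV19 and TRBJ2-1 were each above 0 in 13 libraries, at 0.0183% and 0.0074% or less. Their values in liver and gut overlapped.

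The frequent long CD8 clonotypes were again found in few libraries. The TRBV16 and TRBJ2-2 clonotype was found in STAT3ko alone, at 0.0113% before HCT, 0.195% in liver replicate 1 and 0.041% in gut replicate 1. A TRBV13-1 and TRBJ2-4 clonotype was found in WT alone, at 0.00191%, 0.193% and 0.015% in the same places. Both had 17 residues, and both were chosen for their day 6 level.

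The TRBV29 and TRBJ2-5 clonotype shown above had the highest mean of any long CD8 clonotype before HCT, at 0.46% in WT, with 0.112% in WT liver replicate 1 and 0.000349% in WT gut replicate 1. A second TRBV29 and TRBJ2-5 clonotype was listed at 0 before HCT and stood at 0.165% in WT liver replicate 2, 0.0126% in WT gut replicate 1, 0.00705% in STAT3ko liver replicate 2 and 0.00222% in STAT3ko gut replicate 1. Also chosen for their level before HCT were a TRBV17 and TRBJ2-4 clonotype, at 0.253% in WT, and a TRBV13-2 and TRBJ1-3 clonotype, at 0.177%.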

How the data were processed

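TCR-CDR3 sequencing of sorted donor T cells was analysed from the joined TCRB tables of CD4 and CD8 T cells. Per the methods, TCR transcripts were amplified with a 5′ template-switching kit and sequenced as paired reads, clonotypes were called with MiXCR, and libraries were joined with VDJtools. The labels name mm10. The authors deposited each value as a clonotype's fraction of its library's reads, formed before the join, so listed fractions sum to less than 1. Read counts were not inferred from the fractions, and the depth is treated as unknown. No interval or detection limit is therefore given. Other columns give V, D and J segments and their positions in the CDR3, which were used, and the number of libraries of the join. The 2 TCR alpha tables were not used.

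The long share was the sum of long clonotypes divided by the sum of clonotypes from C to F or W. Sites (6 tests) and genotypes (6 tests, within tissue) were compared by two-sided exact permutation tests, adjusted by the Benjamini-Hochberg method within each family, as were the 40 feature tests. V and J usage in gut and liver (log2 of percent + 0.1, leaving out segments below 0.5% mean usage) went into limma 3.58.1 (R 4.3.3), with terms for tissue and genotype, so fold changes of rare segments are understated. Counting used Python 3.11.15, pandas 2.3.3 and numpy 2.4.6, and the scripts were tested on simulated data. Groups came from the labels. The methods name 2 batches without tying them to replicate numbers, so batch was not analysed and values are given by replicate. Segments were named from a mean usage of 5% of long reads or membership of a listed V group, and clonotypes as the 3 highest on day 6, the 3 highest before HCT and the 3 above 0 in most libraries of each table. TRBV2, TRBV15 and TRBJ2-7, TRBJ1-1, TRBJ1-2, TRBJ1-5 and TRBJ1-6 were named from those groups or to cover all 12 J segments. The definition, members and lists were chosen with earlier results of these data known. Germline segments were read from GENCODE vM21, and full amino acid sequences are not printed.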

Additional observations from a re-analysis of the deposited data

Results flagged for a closer look

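Of 108 groups of 6 libraries examined (liver or gut, long share, features and named segments), 12 held 1 library whose distance from the nearest of the others exceeded the 95% limit of Dixon's ratio. Chance gives about 1 in 20. In CD4 T cells, STAT3koPD-1ko gut replicate 2 had 58.3% TRBV23 (13.3% to 24.8% in the other gut libraries), 30.4% TRBJ1-4 (0.213% to 11.03%) and 9.71% TRBV5 (15.02% to 18.1%) among its long reads. STAT3ko gut replicate 2 had 54.1% TRBJ2-3 (18.97% to 32.0%) and 9.74% TRBV13-3 (2.60% to 4.77%). WT liver replicate 2 had a long share of 4.97% (6.21% to 6.87%), and STAT3koPD-1ko liver replicate 1 had 0.446% at 18 to 25 residues (0.154% to 0.258%).

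In CD8 T cells, STAT3koPD-1ko gut replicate 2 had 1.499% TRBJ1-3 (4.94% to 6.19%) and 92.0% TRBJ2 segments (76.8% to 81.8%). WT gut replicate 2 had 14.6% TRBV16 (8.03% to 9.16%), WT liver replicate 1 had 2.76% TRBV14 (5.39% to 6.83%) and STAT3ko liver replicate 1 had 8.55% TRBV5 (10.5% to 11.7%). Of these 12 values, 8 came from gut replicate 2, where the 10 most frequent long clonotypes held 31.3%, 65.8% and 80.2% of the long CD4 reads in WT, STAT3ko and STAT3koPD-1ko.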

How the results depend on the processing

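Depth was treated as unknown, single-library clonotypes are not listed, TRBV26 lengths could not be assessed, and gut replicate 2 decided the site difference. No genotype comparison could pass 0.05. Differences are in points of the long share. Gut minus liver in CD4 T cells passed only with all listed clonotypes as the denominator (-2.31, adjusted p = 0.039). That denominator includes CDR3 not from C to F or W, mostly TRBV26 clonotypes, whose share of reads also differed by site. CDR3 from C to F or W made up 73.2% of listed CD4 reads in the gut and 90.3% in the liver. The adjusted p of CD4 gut minus liver ranged from 0.039 to 1, and that of CD8 T cells from 0.0519 to 1. With clonotypes of at least 2 genotypes, a setting added after the data were seen, gut minus before HCT reversed to 0.152 (CD4) and 0.0605 (CD8) and gut minus liver to 0.421 and 0.0804. With those in 3 libraries or fewer, also added, reversals were 0.225 for CD4 gut minus liver, 0.113 for CD8 STAT3koPD-1ko minus STAT3ko and 0.641 for CD8 STAT3koPD-1ko minus WT. CD4 STAT3koPD-1ko minus STAT3ko reversed with each clonotype counted once (-0.369), from 15 residues (-0.427), in at least 3 libraries (-0.0538) and without clonotypes above 0.1% (-0.102). Other reversals were CD4 STAT3ko minus WT from 17 residues (-0.0366), CD8 liver minus before HCT from 17 residues (0.0704), CD4 liver minus before HCT counted once (0.0179) and CD8 STAT3koPD-1ko minus WT from 15 residues (0.312). Counting each clonotype once called 0 CD4 and 1 CD8 V segments. The cause of these changes was not tested.

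Leaving out 1 library at a time, CD4 gut minus liver ranged from -2.18 to -1.13, CD8 gut minus liver from -2.80 to -1.75, CD4 STAT3ko minus WT from -0.318 to 1.83, CD4 STAT3koPD-1ko minus STAT3ko from -0.617 to 1.54, CD8 STAT3ko minus WT from -0.307 to 1.78, CD8 STAT3koPD-1ko minus STAT3ko from -1.97 to 0.123, CD8 STAT3koPD-1ko minus WT from -1.19 to 0.822, and called CD4 V segments from 1 to 4 (4 without STAT3ko gut replicate 1). The 11 reversals were STAT3ko minus WT without STAT3ko gut replicate 1 (-0.318 in CD4, -0.307 in CD8) or WT gut replicate 2 (-0.238, -0.267), CD4 STAT3koPD-1ko minus STAT3ko without STAT3ko gut replicate 2 (-0.617) or STAT3koPD-1ko gut replicate 1 (-0.402), CD8 STAT3koPD-1ko minus STAT3ko without STAT3ko gut replicate 1 (0.123) or STAT3koPD-1ko gut replicate 2 (0.0774), and CD8 STAT3koPD-1ko minus WT without STAT3koPD-1ko gut replicate 2 (0.816), WT gut replicate 1 (0.822) or WT liver replicate 1 (0.0109).

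Labels were also exchanged only within pairs of the same genotype and replicate number. Gut minus liver was then -1.68 in CD4 (exact p = 0.125, adjusted p = 0.232) and -2.26 in CD8 T cells (exact p = 0.0312, adjusted p = 0.143). That CD8 p is the smallest these pairs allow. Same-numbered libraries correlated in their deviations from -0.546 to 0.186 between liver and gut of a genotype and up to 0.692 between genotypes of a tissue, not above 0.1 in every pair, so the numbers were not taken as a pairing, and liver replicate 2 shared 424 to 598 long CD4 clonotypes with gut replicate 1 but 7 to 41 with gut replicate 2. With the replicate number as a block, limma called 3 CD4 V segments, TRBV23 and TRBV12-2 among them.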
